A study of Caenorhabditis elegans with 15 samples.

Results

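The genes of peroxisomal beta-oxidation that build the ascaroside pheromones were followed across 5 groups of Caenorhabditis elegans. Members were listed by name from knowledge of the pathway. They were the acyl-CoA oxidases acox-1.1 to acox-1.6 and acox-3, and the genes of the later steps, maoc-1, dhs-28 and daf-22. Of the 10 genes listed, 8 had a row among the 16196 genes of the table, namely 5 of 7 oxidases and all 3 later-step genes. acox-1.2 and acox-1.4 were not analysed here. The nematodes were wild type (strain N2), collected whole at the L4 larval stage, and RNA of 15 libraries was sequenced, 3 per group. The sucrose group (suc) had 400 mM sucrose, the stearic acid group (ste) had stearic acid, the suc-ste group had both, the suc-ste-res group had both plus resveratrol, and the control group had none of these. Stearic acid and resveratrol are each given as 500 mg/ml in the sample labels, whereas the study's methods give the same figure in micrograms per ml. Stock solutions of stearic acid were made with ethanol and those of resveratrol with DMSO, and whether control plates carried these solvents is not given in the sources used here. The libraries are called biological replicates, with no statement of separate cultures, so p-values measure the spread between these samples.

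Peroxisomes shorten very long and branched acyl chains by removing units of acetyl-CoA in a repeated cycle. In C. elegans the cycle also trims the fatty acid-like side chains of ascarosides, small sugar-based molecules that the worms release and that steer dauer formation, mating and aggregation. An acyl-CoA oxidase opens each cycle by setting a double bond, the enoyl-CoA hydratase MAOC-1 adds water to it, the dehydrogenase DHS-28 oxidises the product, and the thiolase DAF-22 cleaves off acetyl-CoA. The oxidases differ in the chain lengths that they accept, while the later steps are shared. Mutants of daf-22 or dhs-28 make little short-chain ascaroside and accumulate fat.

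The members are spread over chromosomes I, II, III, IV and X, given here in coordinates of the WBcel235 assembly. acox-1.1 (F08A8.1, chromosome I, 12938555 to 12942227) and acox-1.3 (F08A8.3, chromosome I, 12946932 to 12951099) belong to a tandem array on the plus strand that also holds acox-1.2 and acox-1.4. acox-1.5 (C48B4.1) lies on chromosome III from 9586618 to 9592192, acox-1.6 (F59F4.1) on chromosome X from 15834072 to 15838546 and acox-3 (F58F9.7) on chromosome IV from 6245358 to 6248492, all on the minus strand. maoc-1 (E04F6.3, chromosome II, 7196276 to 7197495, plus strand) overlaps E04F6.6 on the opposite strand, and dhs-28 (M03A8.1, chromosome X, 6818438 to 6820080, plus strand) overlaps gei-15 on the opposite strand. daf-22 (Y57A10C.6) lies on chromosome II from 12423518 to 12425694, on the minus strand. Whether counting used strand is not given in the sources used here, so reads of maoc-1 and dhs-28 could include those of their overlapping partners. Reads of the tandem oxidases may likewise be shared between paralogs.

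Summed counts ran from 19433436 to 21400063 per library, with a median of 20319650. Marker genes of the body's tissues were detected in every library with none at 0. Their summed levels differed between groups, in CPM (counts scaled to library size with TMM factors). Intestinal markers (6 of 8 found) summed to 3833 to 4118 in suc, 6029 to 7392 in ste, 4264 to 4804 in suc-ste and 4337 to 5226 in suc-ste-res libraries, against 5118 to 6414 in control libraries. The list did not move as 1, since in suc asp-1 fell (log2 fold change -0.75), ges-1 rose (1.3) and the median of the 6 was 0.16. Yolk genes (5 of 6 found), made by the adult intestine, summed to 10187 to 11078 in suc, 6802 to 8929 in ste, 5247 to 6581 in suc-ste and 5874 to 8615 in suc-ste-res libraries, against 4216 to 6000 in control libraries. In ste vit-2 (1.28) and vit-6 (0.41) rose while vit-1 (-1.71) and vit-4 (-3.12) fell, and the median of the 5 was -0.49. Hypodermal markers (5 of 6 found) summed to 1329 to 1364 in suc, 818 to 870 in ste, 1115 to 1337 in suc-ste and 1136 to 1328 in suc-ste-res libraries, against 1022 to 1152 in control libraries. Here too members went both ways, since in suc rol-6 rose (1.16), bli-1 fell (-1.01) and the median of the 5 was 0.26. Germline markers (3 of 5 found) summed to 358 to 455 in suc, 343 to 410 in ste, 385 to 463 in suc-ste and 364 to 460 in suc-ste-res libraries. In control libraries they summed to 477, 473 and 749, so the top of that range rests on control replicate 3. Neuronal markers (4 of 5 found) summed to 195 to 211 in suc, 221 to 235.4 in ste, 177 to 215 in suc-ste and 169 to 209 in suc-ste-res libraries, against 137 to 197 in control libraries. Sperm markers (4 of 6 found) were at 14.3 to 16.4 in suc libraries and 19.5 to 31.1 in all others, and body muscle markers (3 of 4 found) at 2315 to 3193 in suc-ste libraries and 2970 to 4679 in all others. The part of these shifts in the results below was not tested, and in whole worms more cells of a type and more RNA per cell cannot be told apart.

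The later-step genes were the most abundant members in every group, in FPKM, which is scaled to gene length. dhs-28 led with a mean of 148 ± 14.2 FPKM in control libraries (SD, n = 3), and its range was apart from that of the next member in all 5 groups. The oxidases lay lower, and acox-1.3 was last in every group, at 8.38 ± 1.26 FPKM in control libraries. The order among the oxidases differed between groups. In control libraries the neighbours acox-1.5, acox-3 and acox-1.1 overlapped in range, whereas acox-1.1 had the highest mean FPKM of the oxidases in each of the 4 treated groups. In suc its range still overlapped with that of acox-1.5.

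**Figure D1:**
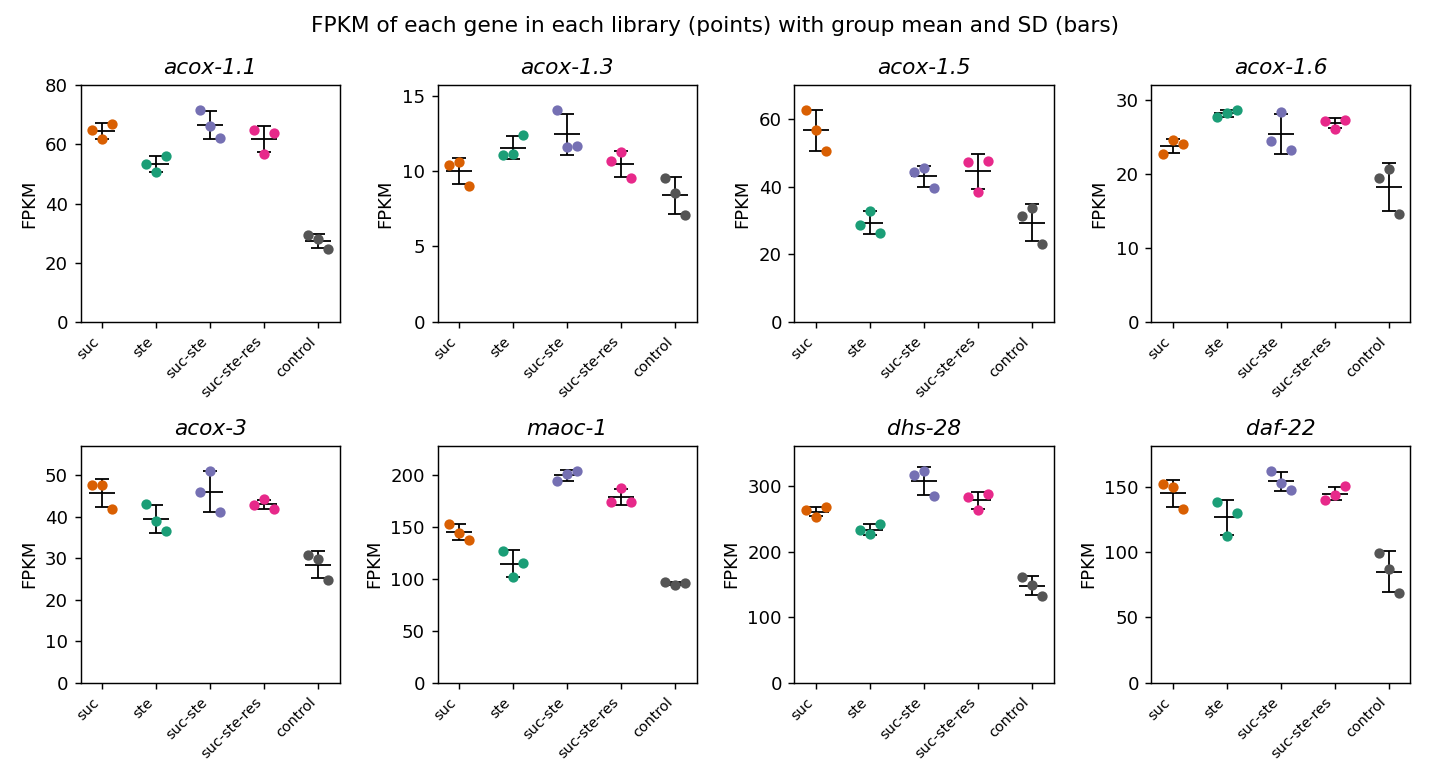
FPKM (vertical axes, each starting at 0) of the 8 genes in the suc, ste, suc-ste, suc-ste-res and control groups, with 1 point per library and bars for the group mean and SD (n = 3). All treated libraries lie above all control libraries for acox-1.1, acox-1.6, acox-3, maoc-1, dhs-28 and daf-22, while for acox-1.5 the ste libraries lie among the control libraries. The share of all genes that separate in this way was not determined, and all genes share the same control libraries.

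acox-1.1, an oxidase needed to make short-chain ascarosides, had the largest change of the members. acox-1.1 was named through the study's lists of changed genes, so this rank is not independent of how it was found. It had 65.0, 61.8 and 66.9 FPKM in suc libraries, 53.4, 50.6 and 55.9 FPKM in ste libraries, 71.5, 66.3 and 62.2 FPKM in suc-ste libraries and 65.0, 56.8 and 63.9 FPKM in suc-ste-res libraries, against 29.2, 28.1 and 24.8 FPKM in control libraries. Every treated library was thus above every control library. How many of all genes separate in this way was not determined, here or for the members below. In the edgeR quasi-likelihood test the log2 fold change over control was 1.26 ± 0.10 in suc (SE, adjusted p = 6.46e-05), 0.81 ± 0.11 in ste (adjusted p = 0.000411), 1.3 ± 0.11 in suc-ste (adjusted p = 4.11e-05) and 1.19 ± 0.11 in suc-ste-res (adjusted p = 5.22e-05). The 4 comparisons with control share the control libraries. The change passed the threshold in every alternative tried for these comparisons.

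acox-1.5, another acyl-CoA oxidase gene, rose where sucrose was present. It had 62.7, 56.9 and 50.5 FPKM in suc libraries, 28.7, 33 and 26.2 FPKM in ste libraries, 44.3, 45.6 and 39.7 FPKM in suc-ste libraries and 47.5, 38.6 and 47.6 FPKM in suc-ste-res libraries, against 31.2, 33.8 and 23.2 FPKM in control libraries. The ste libraries overlapped with the control libraries and the other treated libraries lay above them. The log2 fold change was 0.95 ± 0.16 in suc (SE, edgeR adjusted p = 0.00275), 0.64 ± 0.16 in suc-ste (adjusted p = 0.0203) and 0.66 ± 0.17 in suc-ste-res (adjusted p = 0.0201). In ste it was -0.03 with a 95% interval of -0.37 to 0.31 (adjusted p = 0.898). The suc-ste call was lost without suc-ste replicate 1 (edgeR adjusted p = 0.0800) or replicate 2 (0.0841), and the suc-ste-res call without suc-ste-res replicate 1 (0.0838) or replicate 3 (0.0828).

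acox-3, a further peroxisomal oxidase, had 47.7, 47.5 and 41.8 FPKM in suc libraries, 43.1, 38.9 and 36.5 FPKM in ste libraries, 46.0, 51.0 and 41.2 FPKM in suc-ste libraries and 42.9, 44.2 and 41.9 FPKM in suc-ste-res libraries, against 30.9, 29.8 and 24.7 FPKM in control libraries. All treated libraries were above the control libraries. It rose in suc (log2 fold change 0.67, edgeR adjusted p = 0.00603), suc-ste (0.78, adjusted p = 0.00376) and suc-ste-res (0.63, adjusted p = 0.00584). In ste its value was 0.38 with a 95% interval of 0.07 to 0.69 (adjusted p = 0.0754), and 0.0230 when all 15 libraries were fitted together.

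acox-1.6 had 22.8, 24.7 and 24.1 FPKM in suc libraries, 27.8, 28.2 and 28.7 FPKM in ste libraries, 24.5, 28.5 and 23.2 FPKM in suc-ste libraries and 27.2, 26.1 and 27.4 FPKM in suc-ste-res libraries, against 19.5, 20.8 and 14.6 FPKM in control libraries. All treated libraries were above the control libraries, and its highest group mean was that of ste, unlike acox-1.1, acox-1.5 and acox-3. It passed the threshold in ste (log2 fold change 0.61, edgeR adjusted p = 0.0154) and in suc-ste-res (0.57, adjusted p = 0.0274). The values of 0.39 in suc (adjusted p = 0.117) and 0.53 in suc-ste (adjusted p = 0.0553) did not pass. In suc-ste it passed in 6 of 13 alternatives (adjusted p of 0.00384 to 0.0499), among them the replicate block (0.00384), where replicate numbers paired the libraries, and the fit without control replicate 3 (0.0351). The ste call was lost without any 1 of the ste libraries (adjusted p of 0.0520, 0.0649 and 0.0686 without replicates 1, 2 and 3). The suc-ste-res call was lost without control replicate 1 (0.0658) and without suc-ste-res replicates 1, 2 and 3 (0.103, 0.0508 and 0.0995).

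acox-1.3, the least abundant member, had 10.4, 10.6 and 9.03 FPKM in suc libraries, 11.1, 11.1 and 12.4 FPKM in ste libraries, 14, 11.6 and 11.7 FPKM in suc-ste libraries and 10.7, 11.3 and 9.57 FPKM in suc-ste-res libraries, against 9.55, 8.53 and 7.05 FPKM in control libraries. In FPKM the suc range overlapped with that of control. The deposited counts set the groups further apart, with 693, 679 and 640 counts in suc libraries and 461, 421 and 367 counts in control libraries. The counts per unit of FPKM were 64 to 70.8 in suc, 51.4 to 52.0 in ste, 59.8 to 63.0 in suc-ste and 57.4 to 63.6 in suc-ste-res libraries, against 48.3 to 52.0 in control libraries. The reason for this difference between the units was not tested.

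The call for acox-1.3 was lost where FPKM was fitted with limma, an alternative that changed both the unit and the test. From counts, its log2 fold change was 0.70 in suc (edgeR adjusted p = 0.00676), 0.52 in ste (0.0292), 0.90 in suc-ste (0.00288) and 0.61 in suc-ste-res (0.0126). With limma on log2(FPKM + 1), the log2 fold change was 0.24 in suc (adjusted p = 0.366), 0.43 in ste (0.0982), 0.52 in suc-ste (0.0641) and 0.30 in suc-ste-res (0.259). From counts, the ste call was also lost without control replicate 2 (0.0597) and without ste replicates 1, 2 and 3 (0.0696, 0.0776 and 0.145), and the suc-ste-res call without control replicate 2 (0.0648) or suc-ste-res replicate 1 (0.0510).

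maoc-1, the shared hydratase, was highest in the groups given both agents. It had 153, 145 and 137 FPKM in suc libraries, 127, 102 and 115 FPKM in ste libraries, 194, 202 and 204 FPKM in suc-ste libraries and 175, 188 and 174 FPKM in suc-ste-res libraries, against 97.0, 94.3 and 96.6 FPKM in control libraries. The suc-ste libraries were above those of every other group. The log2 fold change over control was 0.60 ± 0.10 in suc (SE, edgeR adjusted p = 0.00369), 1.11 ± 0.09 in suc-ste (adjusted p = 4.45e-05) and 0.90 ± 0.10 in suc-ste-res (adjusted p = 0.000181). In ste it was 0.20 with a 95% interval of -0.07 to 0.48 (adjusted p = 0.254).

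dhs-28, the shared dehydrogenase, had 263, 253 and 268 FPKM in suc libraries, 232, 226 and 243 FPKM in ste libraries, 317, 323 and 284 FPKM in suc-ste libraries and 283, 264 and 289 FPKM in suc-ste-res libraries, against 161, 149 and 133 FPKM in control libraries. No treated library overlapped with control. It rose by 0.83 ± 0.11 in suc (log2, SE, edgeR adjusted p = 0.000739), 0.65 ± 0.11 in ste (0.0018), 1.05 ± 0.11 in suc-ste (0.000165) and 0.89 ± 0.11 in suc-ste-res (0.000321).

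daf-22, the thiolase that ends the cycle, had 152, 149 and 133 FPKM in suc libraries, 138, 112 and 130 FPKM in ste libraries, 162, 153 and 148 FPKM in suc-ste libraries and 140, 144 and 150 FPKM in suc-ste-res libraries, against 99.4, 86.8 and 68.8 FPKM in control libraries. Here too the treated libraries lay above the control libraries. It rose by 0.78 ± 0.13 in suc (log2, SE, edgeR adjusted p = 0.00373), 0.56 ± 0.15 in ste (0.0188), 0.90 ± 0.14 in suc-ste (0.00155) and 0.79 ± 0.13 in suc-ste-res (0.0023). The ste call was lost without ste replicate 1 (adjusted p = 0.0852) or replicate 3 (0.0776).

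Counted together at an adjusted p of 0.05 or less, 7 of 8 members rose in suc, where 9.63% of all 12745 genes tested rose and 8.78% fell. In ste 5 of 8 rose, beside 11.6% of 12772 genes higher and 11% lower. In suc-ste 7 of 8 rose, beside 11% of 12781 genes higher and 8.89% lower, and in suc-ste-res all 8 rose, beside 9.24% of 12768 genes higher and 8.48% lower. No member fell in these comparisons. acox-1.1 is among the members counted, and its row was named through the study's lists of changed genes. With the study's further minimum of a 2-fold change, the call was met by acox-1.1 alone in suc (3.78% of all genes higher), by no member in ste (3.41%), by acox-1.1, maoc-1 and dhs-28 in suc-ste (4.31%) and by acox-1.1 alone in suc-ste-res (3.82%). In ste, where no member was called at 2-fold by edgeR or by DESeq2, 6 members had an unadjusted p under 0.05 in edgeR. The share of all genes at that unadjusted p was not determined. Without control replicate 1 or replicate 2, the count at 2-fold in suc was 2, since acox-1.5 (log2 fold change 0.95 with all libraries) reached 1.03 and 1.05. In suc-ste the count was 4 without control replicate 1, where daf-22 reached 1.02, and 2 without control replicate 3, where dhs-28 was at 0.98.

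The median log2 fold change of the 8 members was 0.74 in suc, 0.54 in ste, 0.90 in suc-ste and 0.72 in suc-ste-res, beside medians over all genes tested of -0.02, -0.03, -0.03 and -0.04. For the oxidases the median was 0.70, 0.52, 0.78 and 0.63, and for the later-step genes 0.78, 0.56, 1.05 and 0.89, in the same order of groups.

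**Figure D2:**
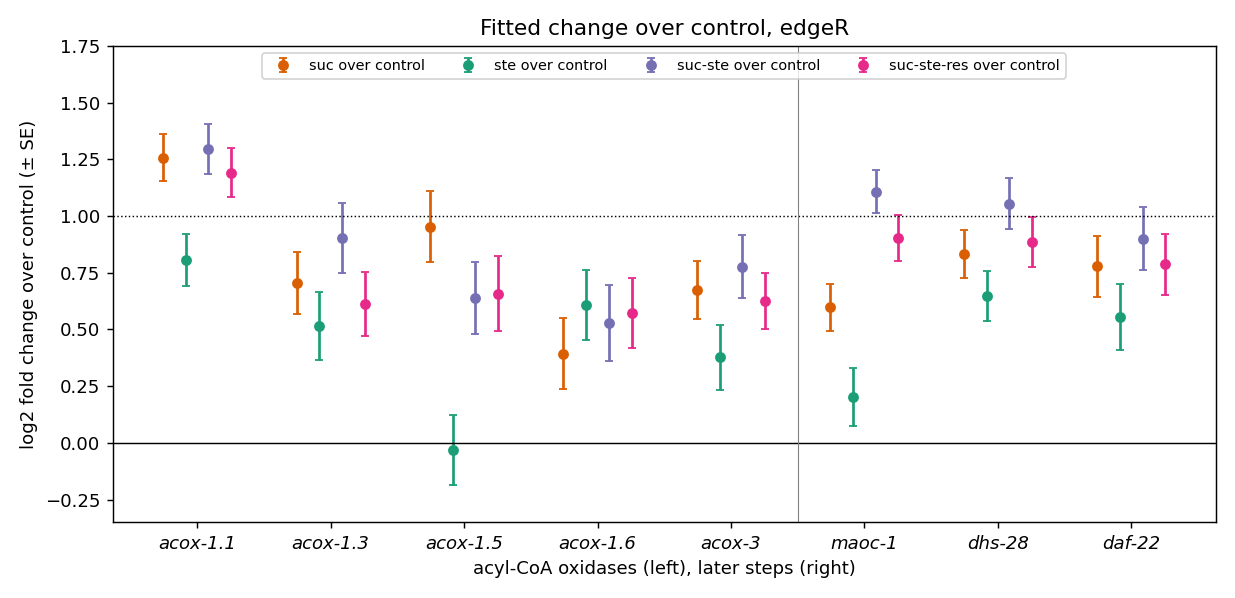
Fitted log2 fold change over control (vertical axis, edgeR, bars for SE) of the 5 oxidases and 3 later-step genes in the suc, ste, suc-ste and suc-ste-res groups. The dotted line marks a 2-fold change, which acox-1.1 passed in all groups but ste, and maoc-1 and dhs-28 in suc-ste. acox-1.5 in ste lies at -0.03.

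The make-up of the oxidase pool differed between groups, as a description with no test. The pool here is that of the 5 oxidases found, without acox-1.2 and acox-1.4. acox-1.1 took 32.2% of the summed oxidase FPKM in suc, 32.9% in ste, 34.4% in suc-ste and 33.1% in suc-ste-res, against 24.6% in control (means of 3 libraries). Its lowest treated library (30.7%) was above its highest control library (26.3%). The share of acox-1.5 was 28.2% in suc, 18.1% in ste, 22.3% in suc-ste and 23.8% in suc-ste-res, against 26.1% in control. The ste libraries (16.4% to 20.4%) and the suc-ste libraries (22.1% to 22.5%) stood below the control libraries (24.6% to 27.9%) in acox-1.5 share. The share of acox-1.6 was 10.9% to 12.5% in suc libraries, 16.9% to 18% in ste libraries, 12.2% to 14% in suc-ste libraries and 14.1% to 14.8% in suc-ste-res libraries, against 15.5% to 17.2% in control libraries. It was thus below all control libraries in the 3 groups with sucrose. These shares use FPKM, whose relation to counts differed between groups, most for acox-1.3. acox-1.1 had 44.2 to 46.6 counts per unit of FPKM in ste libraries, against 48.8 to 52.1 in control libraries. For acox-3 these were 29.3 to 31.8 in ste libraries, against 32.5 to 33.3 in control libraries.

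The summed oxidase FPKM divided by the mean FPKM of the 3 later-step genes compares the 5 oxidases found with the steps that follow. The sum lacks acox-1.2 and acox-1.4, so it does not cover the whole first step. The ratio was 1.09 ± 0.0170 in suc, 1.02 ± 0.0685 in ste, 0.877 ± 0.0333 in suc-ste and 0.931 ± 0.0389 in suc-ste-res, against 1.02 ± 0.0753 in control (SD, n = 3). The suc-ste libraries (0.839 to 0.899) lay below all control libraries (0.949 to 1.1). The suc, ste and suc-ste-res ranges overlapped with that of control. These ratios use FPKM alone, whose relation to counts differed between groups for some members, as given above. The same ratio from counts was not determined, so both the separation of suc-ste and the overlaps may depend on the unit.

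**Figure D3:**
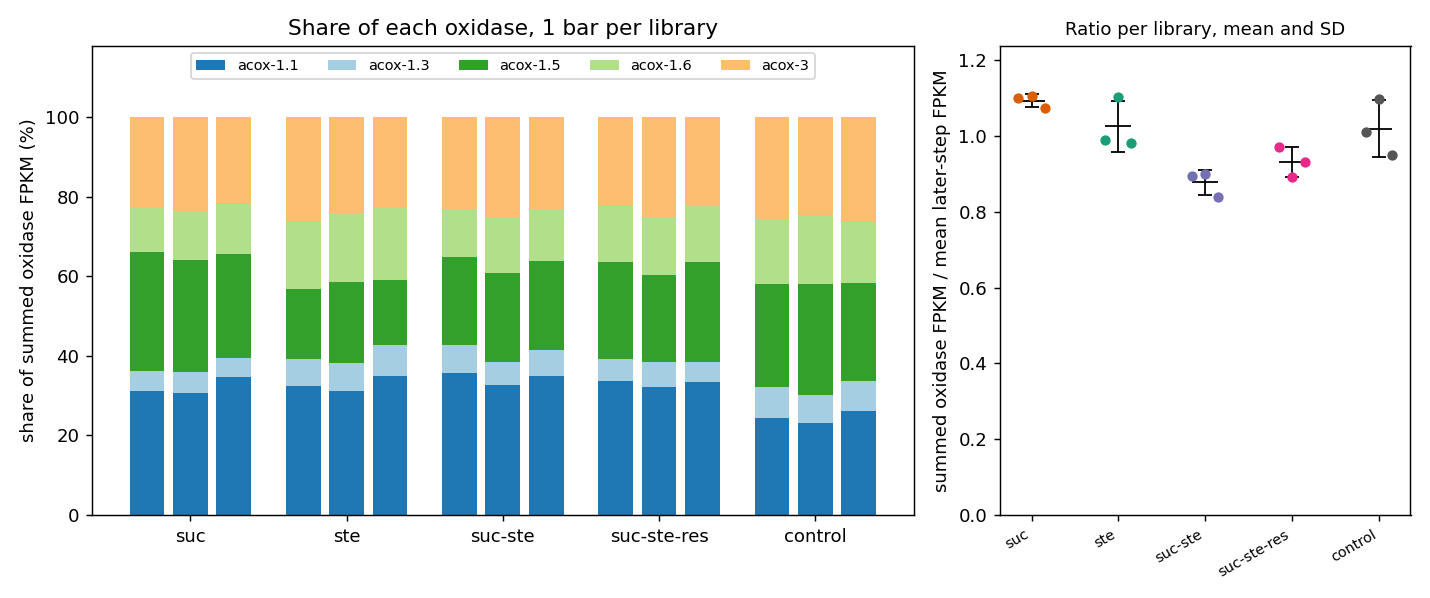
Left, share of the summed FPKM of 5 oxidases taken by each oxidase (vertical axis, percent), 1 stacked bar per library of the suc, ste, suc-ste, suc-ste-res and control groups. Right, summed oxidase FPKM over mean later-step FPKM per library (points) with the group mean and SD, where the suc-ste libraries run from 0.839 to 0.899 and the control libraries from 0.949 to 1.1.

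Sucrose and stearic acid given singly were compared with each other. At an adjusted p of 0.05 or less, 3 of 8 members were higher in suc than in ste, beside 11% of 12677 genes tested. These were acox-1.5 (log2 fold change 0.97 ± 0.10, SE, edgeR adjusted p = 0.000112), acox-1.1 (0.43 ± 0.07, adjusted p = 0.0024) and maoc-1 (0.38 ± 0.10, adjusted p = 0.0174). acox-1.6 had the only negative value, -0.23 with a 95% interval of -0.42 to -0.04 (adjusted p = 0.0745). None of the 8 was called at 2-fold by edgeR or DESeq2, and 6 had an unadjusted p under 0.05 in edgeR, a level for which the share of all genes was not determined. Without ste replicate 1, ste replicate 2 or suc replicate 3, acox-1.5 passed 2-fold as well (log2 1.01, 1.02 and 1.03). The maoc-1 call was lost without ste replicate 2 (adjusted p = 0.0619), ste replicate 3 (0.0755) or suc replicate 2 (0.0580). acox-3 (0.28, adjusted p = 0.0804) passed without ste replicate 1 (0.0334) or suc replicate 3 (0.0374).

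Adding stearic acid to sucrose moved 1 member past the threshold. maoc-1 was higher in suc-ste than in suc by 0.51 ± 0.07 (log2, SE, edgeR adjusted p = 0.0288), where 0.215% of 12582 genes tested rose, and all suc-ste libraries were above all suc libraries. This call was lost without suc replicate 1 (0.0552) or 2 (0.192) and without suc-ste replicates 1, 2 and 3 (0.146, 0.131 and 0.0808). acox-1.5 was the only member with a negative value, -0.31 with a 95% interval of -0.53 to -0.10 (adjusted p = 0.211), and its suc-ste libraries lay below its suc libraries. acox-1.1 was at 0.04 with an interval of -0.15 to 0.23.

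Adding sucrose to stearic acid moved nearly all members. In suc-ste, 7 of 8 members were higher than in ste at an adjusted p of 0.05 or less, beside 16% of 12714 genes tested. maoc-1 was higher by 0.89 ± 0.09 (log2, SE, edgeR adjusted p = 1.71e-05), acox-1.5 by 0.66 ± 0.10 (0.000234), acox-1.1 by 0.48 ± 0.08 (0.00098) and dhs-28 by 0.40 ± 0.08 (0.00228). acox-3 (0.39), acox-1.3 (0.37) and daf-22 (0.33) also passed. acox-1.6 was at -0.09 with a 95% interval of -0.30 to 0.12. The calls of 3 members were lost when 1 library was left out. That of acox-1.3 was lost without ste replicate 1 (0.0747), ste replicate 2 (0.0793) or suc-ste replicate 1 (0.121), that of acox-3 without ste replicate 2 (0.0562), ste replicate 3 (0.0845) or suc-ste replicate 2 (0.0638), and that of daf-22 without ste replicate 2 (0.0561), ste replicate 3 (0.0544) or suc-ste replicate 1 (0.0615).

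Resveratrol on top of both agents moved no member past the threshold, beside 0.0159% of 12591 genes tested in either direction. edgeR and DESeq2 each called 0 of 8 members in suc-ste-res against suc-ste, and 2 had an unadjusted p under 0.05 in edgeR. How many of all genes reached that unadjusted p was not determined. Values were lower in suc-ste-res for 6 of 8 members, and the share of all genes with a lower value was not determined. For maoc-1 the log2 fold change was -0.18 with a 95% interval of -0.34 to -0.03, and for acox-1.3 it was -0.27 with an interval of -0.53 to -0.02 (edgeR adjusted p = 0.999 for both). For acox-1.1 the interval was -0.27 to 0.10, for dhs-28 it was -0.31 to 0.01 and for daf-22 -0.24 to 0.05. As the suc-ste-res group differed from suc-ste in resveratrol and possibly in its solvent, the effects of these cannot be told apart.

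Whether the effects of both agents added up on the log2 scale was tested by an interaction term over 12 libraries. For acox-1.1 the log2 fold change of suc-ste over control was 1.3, against 2.06 for the sum of the suc and ste changes, and the interaction term was -0.79 ± 0.13 (SE, edgeR adjusted p = 0.00102). For dhs-28 the changes were 1.05 and 1.48, and the term was -0.44 ± 0.13 (adjusted p = 0.0312). These 2 of 8 members passed with a negative term, beside 8.59% of 13094 genes tested. The term was negative for 7 of 8 members, and maoc-1 was the exception, at 0.28 with a 95% interval of -0.01 to 0.57 (adjusted p = 0.165). The median term over all genes tested was -0.02, and the share of them with a negative term was not determined. The acox-1.1 term passed in every alternative, whereas the dhs-28 term was lost in 8 of 12 fits that left out 1 library, namely control replicate 2 (0.0504), suc replicates 1, 2 and 3 (0.0506, 0.0609 and 0.0675), ste replicates 1 and 3 (0.0556 and 0.0725) and suc-ste replicates 1 and 3 (0.0613 and 0.0773). daf-22 (-0.45, adjusted p = 0.0999) passed without control replicate 1 (0.0451).

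**Figure D4:**
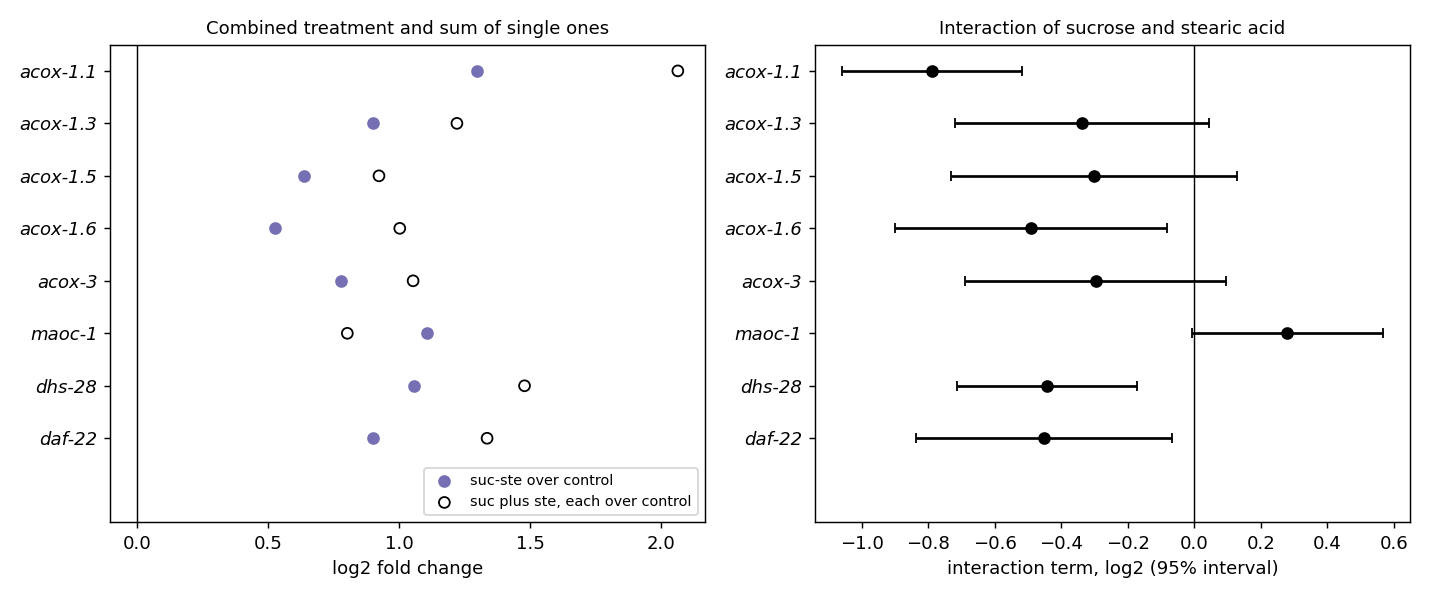
Left, log2 fold change over control (horizontal axis) in suc-ste (filled) and the sum of the changes in suc and ste (open) for each gene. Right, interaction term of the edgeR fit with its 95% interval, which lies below 0 for acox-1.1, acox-1.6, dhs-28 and daf-22 and of which acox-1.1 (-0.79) and dhs-28 (-0.44) passed the adjusted threshold.

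Across the 15 libraries the members varied together, as a description over libraries that share groups. Pearson's r of log2 CPM over the 28 pairs of members had a median of 0.82. The median over other pairs of genes was not determined, and genes outside the list reached 0.99 with a member, so the likeness is not shown to be particular to the members. It was lowest between acox-1.5 and acox-1.6 (0.40) and highest between acox-1.1 and dhs-28 (0.98). Among 8569 named genes with a mean of at least 5 CPM, those most like acox-1.1 were alh-13 (0.99), an aldehyde dehydrogenase gene, nhj-1 (0.99) and gpd-3 (0.99), a glyceraldehyde-3-phosphate dehydrogenase gene with a near-identical copy. alh-13 (0.99) was also the gene most like dhs-28, followed by sph-1 (0.98) and utp-14 (0.98). The genes most like maoc-1 were cth-1 (0.97), a cystathionine gamma-lyase gene, B0272.4 (0.97) and str-7 (0.97). cth-1 and str-7 have consecutive gene numbers in the deposited data, and whether they share reads was not tested. For acox-3 the 3 nearest genes included daf-22 (0.95), beside ptr-14 (0.95) and best-8 (0.95), and for daf-22 they included dhs-28 (0.96), beside dnj-14 (0.97) and F49C12.4 (0.96). dhs-28 (0.94) was also among the 3 nearest to acox-1.3, beside dnj-14 (0.94) and unc-103 (0.94). acox-1.5 was most like W01C8.5 (0.96), C01G10.9 (0.96) and ced-11 (0.95), and acox-1.6 was most like ugt-66 (0.96), txt-8 (0.96) and Y55B1BL.1 (0.96).

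Further genes of the peroxisome were examined as lists, whose counts at an adjusted p of 0.05 or less are read beside the shares of all genes. As above, 9.63% of genes rose and 8.78% fell in suc, 11.6% and 11% in ste, 11% and 8.89% in suc-ste, and 9.24% and 8.48% in suc-ste-res. Of 13 peroxisomal enzymes and transporters tested (14 listed), 9 rose and 0 fell in suc, 10 rose and 1 fell in ste, 9 rose and 1 fell in suc-ste, and 9 rose and 1 fell in suc-ste-res. Their median log2 fold changes were 0.72, 0.74, 0.87 and 0.66 in that order, beside the medians near 0 over all genes. pmp-5, a half-transporter of the ABC type in the peroxisomal membrane, rose by 2.30 in suc, 1.33 in ste, 2.32 in suc-ste and 2.37 in suc-ste-res (log2). agxt-1, an alanine-glyoxylate aminotransferase gene, rose by 1.18, 0.56, 1.27 and 1.00, and daao-1, a D-amino acid oxidase gene, by 1.09, 1.68, 1.43 and 1.41. Not all of the list moved upward. gstk-1, a kappa-class glutathione transferase gene, fell in ste (-1.34) and was at -0.31, -0.08 and -0.18 in the other groups. ech-9, a gene of the enoyl-CoA hydratase family, rose in ste (1.62), fell in suc-ste (-1.66) and suc-ste-res (-1.4) and was at -0.67 in suc, and its log2 fold change of suc-ste over ste was -3.29 (edgeR adjusted p = 6.10e-08).

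Of 7 genes of peroxisome biogenesis tested (11 listed), 4 rose in suc, 1 in ste, 5 in suc-ste and 3 in suc-ste-res and none fell, with medians of 0.42, 0.23, 0.54 and 0.39. The count in ste was near the 11.6% of all genes that rose there. The 3 genes of ether lipid synthesis, whose first steps are peroxisomal, rose in 3, 2, 3 and 2 cases, with medians of 0.47, 0.39, 0.57 and 0.51.

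A list of genes for the modification of ascarosides held carboxylesterases, a family that attaches further groups to ascarosides, and glo-1, a gene of gut granules that was not analysed here. The 6 genes tested (9 listed) were all carboxylesterase genes, of which 3 rose in suc, 4 in ste, 3 in suc-ste and 3 in suc-ste-res and none fell, beside the shares of all genes given above. cest-2.1 rose by 1.62, 1.47, 1.74 and 1.49 in that order, cest-1.1 by 1.33, 1.57, 1.54 and 1.54, and cest-2.2 by 1.24, 0.62, 1.07 and 0.84. cest-3 rose in ste (1.22) and was at 0.39, 0.51 and 0.35 in suc, suc-ste and suc-ste-res without passing. Of the 8 listed ascaroside receptors, which act in sensory neurons, 1 or 2 per comparison had enough counts to be tested. None passed against control. In suc-ste against ste, 1 of 2 receptors tested passed, namely daf-38, which was lower (log2 fold change -0.61, edgeR adjusted p = 0.0192). The share of all genes that were lower in that comparison is not given here, so this call is not read as a result about the receptors.

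Mitochondrial beta-oxidation, the parallel pathway for shorter chains, held the largest changes over control among the pathway lists and also genes that fell. Of 10 genes tested (18 listed), 4 rose and 1 fell in suc, 4 rose and 2 fell in ste, and 4 rose and 1 fell in both suc-ste and suc-ste-res, with medians of 0.20, 0.21, 0.21 and 0.09. The shares of all genes that fell were 8.78% in suc and 11% in ste, and with 10 genes the counts that fell cannot be told from them. In ste, cpt-6 (-0.73) fell beside cpt-4. acs-2, an acyl-CoA synthetase gene, rose by 4.16, 4.10, 4.50 and 4.66, and hacd-1, a hydroxyacyl-CoA dehydrogenase gene, by 4.21, 4.31, 4.43 and 4.42. Among the carnitine palmitoyltransferase genes, which serve acyl import into mitochondria, cpt-4 fell in all 4 groups (-1.02, -1.71, -1.80 and -1.83). cpt-3 rose in suc (2.2), suc-ste (2.2) and suc-ste-res (2.50) and was at 1.41 in ste, whereas cpt-5 rose in ste (1.19) and was at -0.11 in suc-ste and -0.40 in suc-ste-res. Of 5 nuclear receptor and cofactor genes linked to fat breakdown (6 listed), 1 rose in each of suc, ste and suc-ste. None passed in suc-ste-res, while 9.24% to 11.6% of all genes rose over the 4 comparisons. With 5 genes, a count of 1 cannot be told from that share.

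**Figure D5:**
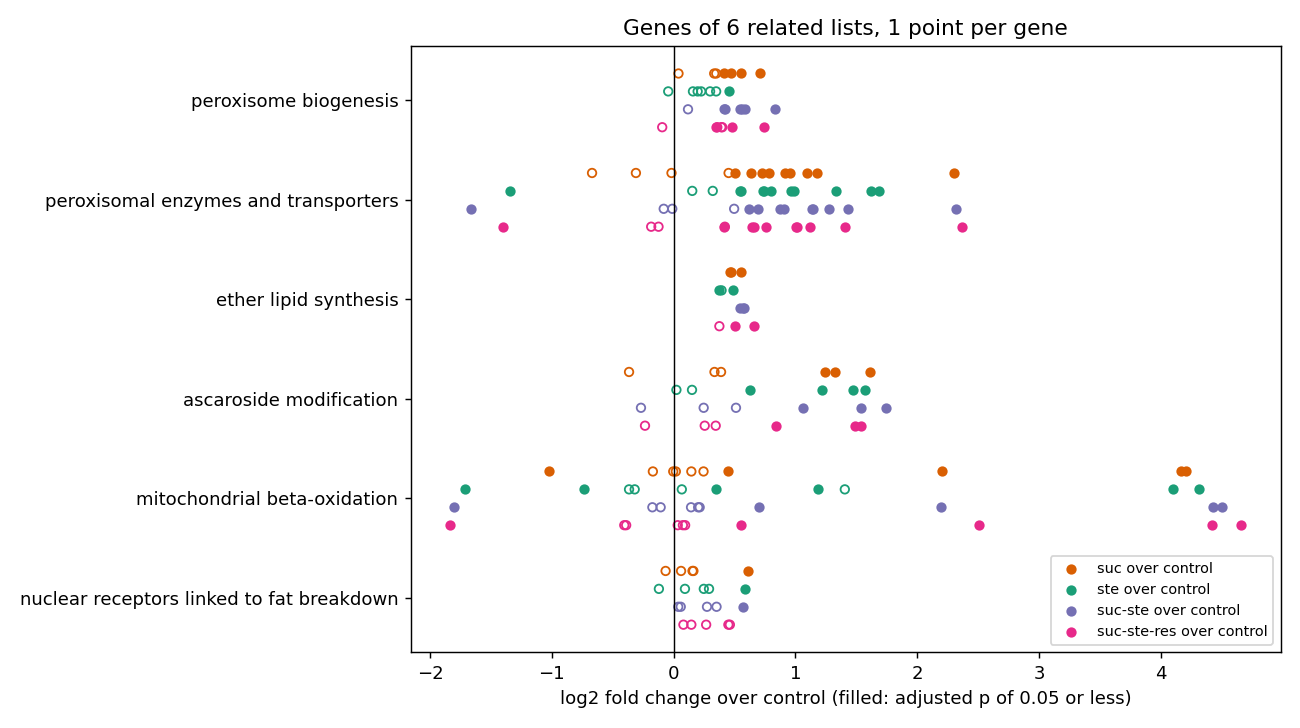
Log2 fold change over control (horizontal axis) of each tested gene of 6 lists, in the suc, ste, suc-ste and suc-ste-res groups from top to bottom within a list, with filled points for an adjusted p of 0.05 or less. The peroxisomal enzymes and transporters lie mostly above 0, with 9 or 10 of 13 filled above 0 in each group, and the points above 4 are acs-2 and hacd-1.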

How the data were processed

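Total RNA of whole L4 nematodes was sequenced after TruSeq library preparation. The authors filtered ribosomal, adapter and low-quality reads, mapped the rest to WBcel235 (TopHat) and derived FPKM (Cufflinks). Deposited counts were raw, and the deposited FPKM had been scaled by the authors for exon length and sequencing depth. The counting tool and its treatment of multiply mapped reads are not given in the sources used here. Columns of the authors' comparisons (FDR, log2 fold change, calls) were not used. Of the 8 members, 3 were found by symbol, 4 by sequence name tied to a symbol through RefSeq and 1 by an older symbol (acox-1.1), although the planned rule named the deposited annotation alone. The older symbol was tied to acox-1.1 through the study's supplementary lists, which hold genes that the authors called changed. Such a tie could be made only for a gene called there, so the change of acox-1.1 is not independent of how it was found. Members, pathway lists and tests were chosen with earlier results of these data known.

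Counts of the 6 libraries compared were filtered with filterByExpr, TMM-normalized and tested by edgeR 4.0.16 (quasi-likelihood) in R 4.3.3, with Benjamini-Hochberg adjustment over all genes tested. A call needed an adjusted p of 0.05 or less and a 2-fold change, and counts at the adjusted p alone stand beside it. The interaction term needed the adjusted p alone. The script was tested on simulated data. Alternatives were RLE scaling, no filter, DESeq2 1.42.0, limma 3.58.1 on log2(FPKM + 1) and log2(FPKM + 0.1), all 15 libraries in 1 fit, the replicate number as a block, an adjusted p of 0.01, no fold minimum and leaving out each library. For the count of interaction calls, the DESeq2, limma and 15-library fits were chosen after seeing the data. All members were named, and from each list up to 5 genes called at 2-fold in any comparison, by size. daf-38 and cpt-6 were named as well, although neither was called at 2-fold. The 3 genes most alike had the highest Pearson's r of TMM log2 CPM. The labels share replicate numbers, and same-numbered libraries deviated together (each r over 0.1) only in suc-ste against control (0.14, 0.23 and 0.39). That pairing comes from the data, not from the labels.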

Additional observations from a re-analysis of the deposited data

Results flagged for a closer look

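The effect of sucrose on acox-1.1 differed with and without stearic acid, by an interaction term of -0.79 on the log2 scale (edgeR adjusted p = 0.00102). It passed in all 19 alternatives. For dhs-28 the term was -0.44 (edgeR adjusted p = 0.0312), a call that was lost in 8 of 12 fits that left out 1 library (adjusted p up to 0.0773). Both were picked out because the test of the difference itself passed the threshold. For both genes, suc-ste libraries were nevertheless above control libraries without overlap.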

How the results depend on the processing

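With no fold-change minimum, the number of members called was 7 in suc, 5 in ste, 7 in suc-ste and 8 in suc-ste-res against control, 3 in suc against ste, 1 in suc-ste against suc and 7 in suc-ste against ste. With 1 library left out, the count ran from 1 to 2 in suc against control, from 2 to 4 in suc-ste against control, from 0 to 1 in suc against ste and from 1 to 3 for the interaction, which had no fold minimum. With the replicate block the counts were 1, 0, 3 and 1 against control in the order above, and 2 for the interaction, as without it. For single members the block ended the suc-ste-res calls of acox-1.3 (0.0648), acox-1.5 (0.0557) and acox-1.6 (0.0818) and the maoc-1 call in suc-ste against suc (0.212), and it passed acox-3 in suc against ste (0.0374), where numbers did not pair the libraries. With all 15 libraries in 1 fit, acox-1.6 also passed in suc against control (0.0325).

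Values near 0 changed sign. acox-1.5 in ste against control was 0.00580 and 0.00638 with limma on FPKM and ran from -0.182 to 0.0673 with 1 library left out. acox-1.3 in suc against ste was -0.19 and -0.20 with limma on FPKM at a pseudocount of 1 and 0.1. acox-1.1 in suc-ste against suc ran from -0.0107 (without suc-ste replicate 1) to 0.103 with 1 library left out. acox-1.5 in suc-ste-res against suc-ste ran from -0.0273 to 0.127, being below 0 without suc-ste replicate 3 or suc-ste-res replicate 1 or 3. In FPKM (pseudocount of 1), limma also lost acox-1.5 in suc-ste (0.0505) and acox-1.5 (0.0526) and acox-1.6 (0.0524) in suc-ste-res against control, acox-1.3 (0.576), acox-3 (0.178) and daf-22 (0.0583) in suc-ste against ste, acox-1.1 (0.0561) and maoc-1 (0.0546) in suc against ste and maoc-1 (0.0648) in suc-ste against suc. The causes were not tested. Of 984 alternative values of single members, 887 kept direction and side of the threshold. With 3 libraries a group, small differences can be missed.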
